A study of Homo sapiens with 12 samples.

Results

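The response to doxycycline (DOX) that the ALKBH4 and ALKBH7 lines had in common was measured on all 12 arrays of the series, 6 induced against 6 uninduced, with the line as a block. Both lines were HEK293 cells, an established human embryonic kidney line, and each carried a FLAG-tagged AlkB homolog behind a tetracycline-inducible promoter at a single integration locus of the same host line. Each line was expanded from a single resistant colony, so that a line is 1 clone. The 4 groups held 3 arrays each, named replicates 1 to 3: each line without DOX (0 µg/ml), called uninduced, and each line with 2 µg/ml DOX, called induced. Cells were harvested 48 h after induction, and all 4 groups grew in tetracycline-free serum with blasticidin and hygromycin. Every induced array received both DOX and a transgene, and no array of a line without a transgene was among the 12, so that an effect of the drug and an effect shared by both transgenes cannot be told apart. Nothing in the labels says that replicates came from separate cultures, so that the p-values rest on the spread among these arrays alone, which may be technical.

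DOX is a tetracycline. The tetracyclines block translation on bacterial ribosomes, act in the same way on the related ribosomes of mitochondria, and bind divalent metal ions. Disturbed mitochondrial translation is known to be sensed through the integrated stress response, in which phosphorylation of eIF2 favours translation of the transcription factor ATF4. ATF4 then acts with C/EBP partners on genes of amino acid uptake, amino acid synthesis and tRNA charging. Protein folding load is answered by a separate route, in which the factor HSF1 binds heat shock elements in front of chaperone genes, and a fall in sterols is answered by SREBP factors. Cellular iron is balanced after transcription, by iron regulatory proteins that stabilise the mRNA of the transferrin receptor and hold back translation of ferritin.

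Promoters were read for these genes because both routes act through known letters in the DNA. RefSeq promoters (build GRCh38.p14, 250 bases before to 50 bases after the first start listed for a gene) were matched by symbol for 103 of the 123 genes chosen by rule. The letters TGATGNAAN, for an element bound by ATF4 with C/EBP, were searched on both strands and occurred in 3.67% of all 27305 promoters, in 1.65% of the 8384 promoters of genes measured here, and in 13 of the 50 promoters found for the list of ATF4 targets. Of those 13 genes, 9 were lower after induction in both lines, 1 was higher in both and 3 differed in direction. Of the 37 genes of that list without the letters, 23 were lower in both lines. The matches are shown, in capitals, for 4 of the 9 genes, with the sequence printed along the strand of the gene. A match is a string of letters and not a measured binding site.
ATF3 (chr1:212565191-212565249, plus strand, match at -191 from the start): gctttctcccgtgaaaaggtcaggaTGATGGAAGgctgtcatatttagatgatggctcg
ASNS (chr7:97872443-97872501, minus strand, match at -68 from the start): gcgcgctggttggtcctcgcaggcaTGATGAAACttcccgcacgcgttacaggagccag
SLC3A2 (chr11:62881710-62881748, plus strand, match at 36 from the start, on the opposite strand): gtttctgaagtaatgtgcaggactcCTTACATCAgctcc
FGF21 (chr19:48755444-48755502, plus strand, match at -55 from the start, on the opposite strand): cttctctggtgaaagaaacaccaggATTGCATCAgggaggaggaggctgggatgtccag

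The letters GAANNTTC, a pair of inverted repeats from the heat shock element, occurred in 6.87% of all promoters, in 4.53% of those of the genes measured, and in 7 of the 18 promoters found for the heat shock list. Of those 7 genes 3 were higher in both lines, 2 were lower in both and 2 differed in direction, while of the 11 without the letters 7 were higher in both and 1 was lower in both. The letters read the same on both strands. The first match is shown in capitals for HSPA1B and HSPA8, the heat shock genes with the largest mean differences between induced and uninduced arrays.
HSPA1B (chr6:31827608-31827665, plus strand, match at -105 from the start): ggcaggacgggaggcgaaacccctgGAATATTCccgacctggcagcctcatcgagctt
HSPA8 (chr11:123062334-123062386, minus strand, first of 2 matches, at -230 from the start): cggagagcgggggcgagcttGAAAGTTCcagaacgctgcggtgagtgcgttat

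Intensities differed more between the lines than between the states of a line. The median unnormalised intensity was 45.6 to 61.6 on the ALKBH4 arrays and 98.9 to 121.2 on the ALKBH7 arrays, and 25.3% to 30.7% of the 48803 probes were detected on an array at a detection p under 0.01. Across the tested probes the correlation was 0.939 to 0.995 between arrays of a group and 0.865 to 0.958 between arrays of different lines. Induced arrays detected 1.33 percentage points fewer probes than uninduced arrays of their line (exact permutation test within lines, two-sided p = 0.045 for 400 arrangements, of which 0.005 is the smallest p possible). Their median intensity did not differ beyond the spread (difference 3.18, p = 0.515 in the same exact test). The part that detection had in the results was not tested. Uninduced replicate 1 of the ALKBH7 line stood apart, with a mean correlation of 0.941 with its own group and 0.967 with the induced arrays of that line. Each of the 3 uninduced ALKBH4 arrays correlated with the induced arrays of its line (0.979, 0.982 and 0.992) at least as closely as with its own group (0.977, 0.978 and 0.984), with the widest gap for replicate 3. Of the HEK293 markers 10 of 14 were measured, among them PAX2 and LHX1. Of fibroblast markers 3 of 11 were measured, of epithelial markers 3 of 9, and of blood cell markers 2 of 9, and PTPRC, CD3E, COL1A2, COL3A1, KRT5 and KRT14 did not pass the detection filter.

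No single gene passed the test for a mean response over both lines, and few differences were large. Log2 intensities of the 15444 probes detected on at least 3 arrays, which covered 10159 genes, were fitted with limma as line plus induction. After Benjamini-Hochberg adjustment 0 probes (0%) passed an adjusted p of 0.05. At an unadjusted p under 0.05 there were 4327 probes, 2181 higher and 2146 lower. The smallest adjusted p was 0.0584, which 245 probes shared, 106 of them higher and 139 lower after induction. The words higher and lower therefore stand below for measured differences that did not pass this test. Only 45 probes had a mean log2 difference beyond 1, and 1 probe, for HSPA1B, exceeded 1 in each line.

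The count of 0 depends on the model and on single arrays. The block model leaves the difference between the responses of the lines in its residual spread. A model with a mean for each of the 4 groups, which takes that difference out, called 924 probes higher (5.98%) and 988 lower (6.40%) for the mean of both responses, and 1766 of these 1912 had equal signs in both lines. With median scaling in place of quantile normalisation the same model called 1 probe. Without uninduced replicate 3 of the ALKBH4 line the block model called 551 probes higher (3.57%) and 602 lower (3.90%). Without uninduced replicate 1 of the ALKBH7 line it called 713 higher (4.62%) and 1022 lower (6.62%), and without induced replicate 1 of the ALKBH4 line 120 higher and 164 lower.

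Most probes had the same direction in both lines. Of all tested probes 33.3% were higher in both lines and 31.6% were lower in both, while 5423 probes had opposite signs. The induced arrays lay above the uninduced arrays without overlap in both lines for 264 probes (1.71% of those tested) and below them for 309 probes (2.00%), which together covered 227 genes higher and 242 genes lower. Groups that did not overlap in either line but differed in opposite directions were found at 96 probes. Counted within each line, groups did not overlap at 1547 probes in the ALKBH4 line against 5675 in the ALKBH7 line. Only 376 probes had an unadjusted p under 0.05 in the ALKBH4 line (limma). Groups this small can also separate without a response, and how often they did so was not tested. A lack of overlap in the ALKBH4 line therefore does not by itself show a response there. The responses of the lines had a correlation of 0.46 across the 15444 probes (Spearman's rho 0.43), as a description over probes that share arrays, a host line and one normalisation. Their spread was unequal, with an SD of 0.17 in the ALKBH4 line against 0.47 in the ALKBH7 line. The correlation was 0.29 without uninduced replicate 2 of the ALKBH4 line, with equal signs at 59.5% of probes. With array quality weights it was 0.12, and 53.2% of probes had equal signs in place of 64.9%.

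**Figure D1:**
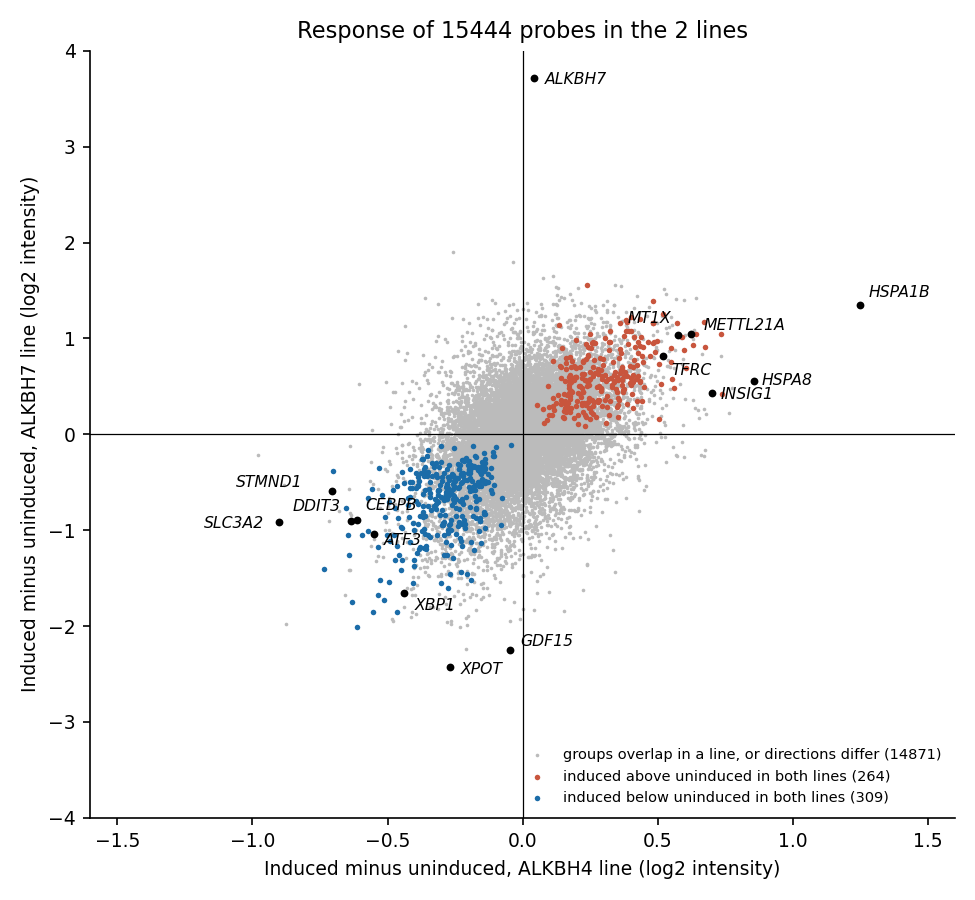
Each point is 1 of the 15444 probes, with the difference between induced and uninduced arrays (log2 intensity, means of 3 arrays) plotted for the ALKBH4 line on the horizontal axis and for the ALKBH7 line on the vertical axis, whose range is wider. The 264 probes higher and the 309 probes lower without overlap in both lines are coloured, named genes are black, HSPA1B exceeds 1 on both axes and ALKBH7 differs in the ALKBH7 line alone.

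The larger the response in the ALKBH7 line, the more often the ALKBH4 line had the same direction. The share of equal signs was 53.6% among the 3105 probes with a difference up to 0.1 in the ALKBH7 line, 66.6% among the 4514 probes from 0.25 to 0.5, and 83.8% among the 697 probes beyond 1. In the model with 4 group means 1824 probes were called higher and 1886 lower in the ALKBH7 line alone, against 0 in the ALKBH4 line. Of these, 73.9% and 79.3% had the same direction in the ALKBH4 line, where 50.01% of all probes were higher. Their median difference in the ALKBH4 line was 0.11 and -0.13, against 0.66 and -0.73 in the ALKBH7 line. Both lines together, tested through the larger of the p-values of the lines, called 0 probes (limma, smallest adjusted p of 1), and 213 probes had both unadjusted p-values under 0.05.

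**Figure D2:**
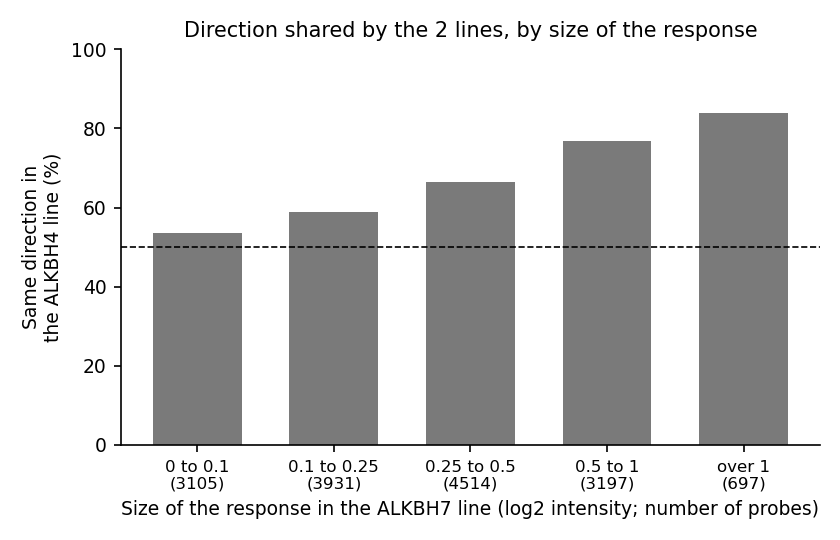
Bars give the percentage of probes whose difference between induced and uninduced arrays had the same sign in the ALKBH4 line, by the size of the difference in the ALKBH7 line (log2 intensity, probe numbers in parentheses), and the dashed line marks 50%. The share was 53.6% in the smallest class and 83.8% in the largest.

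Most targets of ATF4 were lower after induction in both lines. On the list of ATF4 targets and integrated stress response 59 of 63 genes were measured, each at its brightest probe, and 40 were lower in both lines, 7 were higher in both and 12 differed in direction. None of them passed the test. This list, like the other gene lists read here, was chosen with earlier results of these data known. The study had already reported its members DDIT4, SLC3A2, CTH, TSC22D3, DDIT3 and STC2 as lower in the ALKBH4 line, and GDF15 as lower in the ALKBH7 line. The counts of the list are therefore not independent of these data. Over all 10159 genes, 2863 were lower in both, 3574 were higher in both and 3722 differed in direction. The median log2 difference of the list was -0.21, with -0.18 in the ALKBH4 line against -0.21 in the ALKBH7 line, against 0.03, 0.0086 and 0.05 over all genes. Under median scaling, which moved the median of all probes to 0.17, the list median was 0.02, which was 0.15 below that of all probes. The model with 4 group means called 17 members lower and 1 higher, against 6.40% and 5.98% of all probes. In the block model 19 members were called lower without uninduced replicate 3 of the ALKBH4 line (list median -0.26) and 17 without uninduced replicate 1 of the ALKBH7 line (list median -0.23), with 1 higher in each case, against 3.90% and 6.62% of all probes lower. Without uninduced replicate 1 of the ALKBH4 line the list median was -0.17, and the block model called 0 probes.

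Of the 59 genes measured on that list, 5 were lower without overlap in either line (8.475%, against 1.575% of all genes). The 4 of these with the largest moderated t were CEBPB, ATF3, DDIT3 and TSC22D3. Their lack of overlap was a condition of this choice and is no further support. CEBPB, a C/EBP factor and the gene with the smallest unadjusted p of all (1.36e-05), stood at a log2 intensity of 10.99, 11.1 and 10.61 on the uninduced and 10.29, 10.45 and 10.13 on the induced ALKBH4 arrays. On the ALKBH7 arrays it stood at 12.38, 12.02 and 12.06 uninduced and 11.34, 11.11 and 11.31 induced. The groups did not overlap in either line, and the mean difference was -0.76 ± 0.12 (SE, n = 6 against 6 arrays), a ratio of 0.593 between induced and uninduced, with an adjusted p of 0.0584 in limma.

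ATF3, a stress-induced repressor and activator whose promoter is shown above, stood at 10.51, 10.19 and 10.02 uninduced and 9.62, 9.71 and 9.74 induced in the ALKBH4 line. In the ALKBH7 line it stood at 10.87, 11.04 and 11.23 uninduced and 10.0, 9.81 and 10.21 induced. The groups did not overlap in either line, and the mean difference was -0.80 ± 0.13 (adjusted p 0.0584 in limma). DDIT3, which encodes the pro-apoptotic factor CHOP, stood at 9.79, 9.5 and 9.0 uninduced and 8.75, 8.89 and 8.75 induced in the ALKBH4 line. Its values in the ALKBH7 line were 11.31, 10.66 and 10.74 uninduced and 9.98, 9.72 and 10.3 induced. Its groups did not overlap either, as the choice of these genes required, with a mean difference of -0.77 ± 0.16. TSC22D3, a glucocorticoid-responsive gene also known as GILZ, was lower by the same measure (-0.78 ± 0.16, no overlap in either line) at its brightest probe, while its other probes gave -0.04 and -1.43. Each of these 4 genes lay between -0.88 and -0.39 in all alternatives tried. Each was called in 6 of 26, including the alternative that only loosened the adjusted p to 0.1.

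Other members of the list, picked out after their values had been seen, ran in both directions. SLC3A2, the heavy chain of several amino acid exchangers, differed by -0.90 in the ALKBH4 line against -0.92 in the ALKBH7 line, but overlapped in at least one line. ASNS, asparagine synthetase, differed by -0.50 and -0.39. PSAT1, SHMT2 and CTH, enzymes of serine, glycine and cysteine synthesis, had mean differences of -0.57, -0.54 and -0.79. Other members of amino acid supply had values near 0 or above it, with -0.08 for the transporter SLC7A5, -0.01 for MTHFD2 of mitochondrial folate metabolism, 0.12 for the transporter SLC1A5, 0.12 for ALDH18A1 of proline synthesis, 0.17 for CBS of cysteine synthesis and 0.22 for the transporter SLC38A2. TRIB3, a pseudokinase that restrains ATF4, differed by -0.48 and -1.03, and STC2, a secreted glycoprotein, by -0.70 and -0.38 without overlap in either line. XPOT, the tRNA exporter, and GDF15, a secreted stress hormone, had the lowest means of the list, -1.35 and -1.15, and these came mainly from the ALKBH7 line, where the differences were -2.43 and -2.25 against -0.27 and -0.05. ATF4 itself gave 0.06 and 0.47 at its brightest probe, with means of -0.02 and -0.75 at its other probes. The exception among the members with an adjusted p under 0.1 was NDRG1, a gene also induced by hypoxia and iron loss, at 0.42 and 1.03.

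Most heat shock genes were higher in both lines. On the heat shock list 20 of 25 genes were measured, of which 11 were higher in both lines, 4 were lower in both and 5 differed in direction, with a median of 0.18 (0.22 in the ALKBH4 line against 0.16 in the ALKBH7 line). None passed the test, and 4 were called higher and 0 lower in the model with 4 group means, against 5.98% and 6.40% of all probes. The list median was 0.12 without uninduced replicate 1 of the ALKBH4 line. It was 0.17 without uninduced replicate 3 of the ALKBH4 line, with 3 members called higher by the block model (3.57% of all probes), and 0.16 without uninduced replicate 1 of the ALKBH7 line, with 4 (4.62% of all probes). HSPA1B, a stress-inducible HSP70, stood at 10.16, 10.99 and 11.93 uninduced and 12.4, 11.92 and 12.5 induced in the ALKBH4 line. In the ALKBH7 line it stood at 8.67, 8.83 and 8.66 uninduced and 9.99, 10.42 and 9.79 induced. The mean difference was 1.30 ± 0.23, a ratio of 2.46, and all groups were apart in the ALKBH7 line, while uninduced replicate 3 of the ALKBH4 line lay at the level of the induced arrays. Without that array the mean difference was 1.504. HSPA1A and HSPA1B are nearly identical in sequence, so that the signal may include both. The study had already reported HSPA1B and HSPA8 as higher in the ALKBH4 line.

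HSPA8, the constitutive HSP70, stood at 11.56, 11.64 and 12.51 uninduced and 12.78, 12.82 and 12.68 induced in the ALKBH4 line. In the ALKBH7 line it stood at 11.27, 11.5 and 11.69 uninduced and 12.11, 12.06 and 11.96 induced. No groups overlapped, the mean difference was 0.70 ± 0.15, and its second probe gave 0.58 without overlap in either line. HSPA8 was the 1 member of the heat shock list higher without overlap at its brightest probe (5%, against 1.88% of all genes). Without uninduced replicate 3 of the ALKBH4 line, the highest uninduced array, HSPA8 differed by 0.82. HSPE1 and HSPD1, the mitochondrial chaperonin pair that share a promoter, differed by 0.59 ± 0.14 and 0.43 ± 0.12 at their brightest probes, with overlap in the ALKBH4 line. The second HSPE1 probe gave 1.03, while the other HSPD1 probes gave -0.38 and -0.03, so that the direction of HSPD1 depended on the probe. METTL21A, a methyltransferase whose substrates are HSP70 proteins, was among the genes chosen by rule over all probes. It stood at 9.18, 9.13 and 8.92 uninduced and 9.62, 9.59 and 9.9 induced in the ALKBH4 line, and at 8.78, 8.45 and 7.89 uninduced and 9.25, 9.41 and 9.6 induced in the ALKBH7 line. The groups were apart in both lines at this probe (0.83 ± 0.15), as the rule required, while a dim second probe gave 0.03. Members of the heat shock list that act with HSP90, FKBP4 and HSP90AB1, had means of 0.49 and 0.18, and HSF1 itself -0.17.

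**Figure D3:**
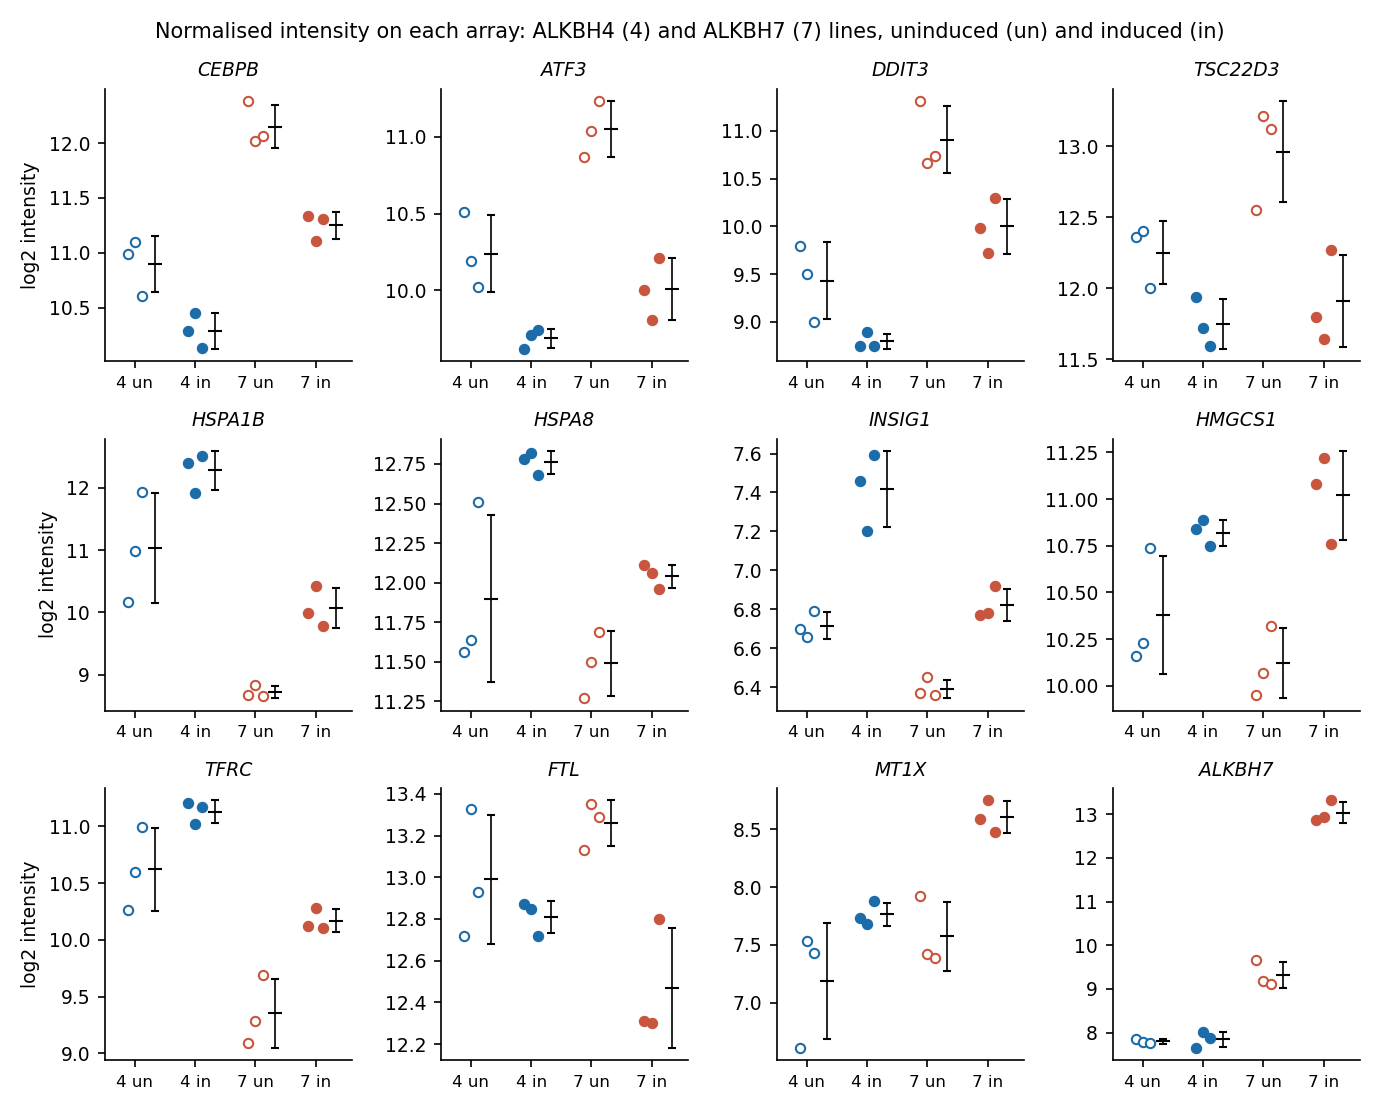
Normalised log2 intensity of 12 genes on every array, with the ALKBH4 line in blue and the ALKBH7 line in red, open symbols for uninduced and filled symbols for induced arrays, and mean with SD (n = 3) to the right of each group. Vertical axes do not start at 0 and differ between panels, so that levels may be compared within a panel only, and ALKBH7 in the last panel differed in the ALKBH7 line alone.

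Most genes of sterol and fatty acid synthesis were higher in both lines. On the SREBP list 28 of 35 genes were measured, with 15 higher in both lines, 5 lower in both and 8 of differing direction, and a median of 0.25 (0.17 and 0.28). The test called 0, and the model with 4 group means called 6 higher and 0 lower, against 5.98% and 6.40% of all probes. Without uninduced replicate 3 of the ALKBH4 line, or without uninduced replicate 1 of the ALKBH7 line, the block model called 5 higher and 0 lower, against 3.57% and 4.62% of all probes higher, with medians of 0.29 and 0.21. The median was 0.20 without uninduced replicate 1 of the ALKBH4 line. HMGCS1, which makes the precursor of mevalonate, stood at 10.16, 10.23 and 10.74 uninduced and 10.84, 10.89 and 10.75 induced in the ALKBH4 line. In the ALKBH7 line it stood at 9.95, 10.07 and 10.32 uninduced and 11.08, 11.22 and 10.76 induced. The groups did not overlap in either line, by a margin of 0.01 in the ALKBH4 line, and the mean difference was 0.68 ± 0.13. NSDHL, an enzyme of cholesterol synthesis, was 0.49 ± 0.12 higher without overlap in either line. In the ALKBH4 line its highest uninduced and its lowest induced array both stood at 9.39 after rounding. HMGCS1 and NSDHL were the 2 members of the list higher without overlap in either line (7.14%, against 1.88% of all genes). MSMO1 and ELOVL6 were 0.68 ± 0.18 and 0.55 ± 0.13 higher at their brightest probes, with overlap in the ALKBH4 line. Their dimmer probes gave 0.07, with opposite signs in the lines, and 0.01. INSIG1, the sterol-regulated anchor of the SREBP complex, was chosen by rule through its dimmer probe, at 6.7, 6.66 and 6.79 uninduced and 7.46, 7.2 and 7.59 induced in the ALKBH4 line, and 6.37, 6.45 and 6.36 uninduced and 6.77, 6.78 and 6.92 induced in the ALKBH7 line. Its brighter probe gave 0.67 in the ALKBH4 line against -0.23 in the ALKBH7 line, so that the direction of INSIG1 in the ALKBH7 line depended on the probe. INSIG1 had already been reported by the study as higher in the ALKBH4 line. The letters TCACCCCAC of a sterol regulatory element were in 0.425% of all promoters and in 0 of the 25 promoters of this list, within the window read.

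The transferrin receptor and a metallothionein were higher in both lines without overlap. On the list of iron and metal handling 15 of 24 genes were measured, and 8 were higher in both lines, 2 lower in both and 5 of differing direction, with a median of 0.10. The transferrin receptor and the metallothionein were its 2 members higher without overlap in either line (13.3%, against 1.88% of all genes). The test called 0, and the model with 4 group means called 4 higher and 1 lower, against 5.98% and 6.40% of all probes. The median was 0.18 without uninduced replicate 3 of the ALKBH7 line and 0.08 without uninduced replicate 1 of the ALKBH4 line. TFRC, the transferrin receptor, stood at 10.26, 10.6 and 10.99 uninduced and 11.21, 11.02 and 11.17 induced in the ALKBH4 line, and at 9.09, 9.28 and 9.69 uninduced and 10.12, 10.28 and 10.1 induced in the ALKBH7 line. No groups overlapped, with a mean difference of 0.67 ± 0.14. MT1X, a metallothionein, stood at 6.61, 7.53 and 7.43 uninduced and 7.73, 7.68 and 7.88 induced in the ALKBH4 line, and at 7.92, 7.42 and 7.39 uninduced and 8.59, 8.75 and 8.48 induced in the ALKBH7 line. Here too no groups overlapped (0.80 ± 0.16), although the metallothioneins are close paralogs and their probes may share signal. FTL, the ferritin light chain, was lower, at -0.48 ± 0.14 at the mRNA level and overlapped in the ALKBH4 line, and its second probe gave -0.45. ACO1, which doubles as iron regulatory protein 1, was 0.34 ± 0.11 higher, with overlap in the ALKBH4 line.

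Genes of the respiratory chain, the mitochondrial ribosome and the proteasome had higher medians in the ALKBH7 line than in the ALKBH4 line, a difference that was not tested for the lists. Of 30 genes measured for respiratory complex I, 15 were higher in both lines and 3 lower in both, but the median was 0.0038 in the ALKBH4 line against 0.32 in the ALKBH7 line. NDUFS3 was its 1 member higher without overlap in either line (3.33%, against 1.88% of all genes), at 0.10 and 0.50. Of 37 genes for complexes II to V, 16 were higher in both and 3 lower in both. COX5A, a subunit of cytochrome oxidase, was the one without overlap in either line, at 12.5, 12.78 and 12.69 uninduced and 12.79, 13.13 and 13.02 induced in the ALKBH4 line and 12.93, 13.01 and 13.08 uninduced and 13.29, 13.4 and 13.36 induced in the ALKBH7 line. Its differences were 0.32 and 0.34. The 89 genes of the mitochondrial ribosome and its translation factors, the machinery that tetracyclines act on, had 33 members higher and 22 lower in both lines and medians of -0.01 in the ALKBH4 line against 0.17 in the ALKBH7 line. Of 15 genes encoded by mitochondrial DNA 0 were matched by symbol, and they were not analysed here. Of 28 proteasome genes 14 were higher in both lines and 4 lower in both, with medians of 0.02 and 0.32. PSMD2, PSMD6 and PSMD12, of the regulatory particle, did not overlap in either line, at mean differences of 0.47, 0.42 and 0.64 at their brightest probes. They made up 10.7% of the proteasome genes, against 1.88% of all genes higher without overlap. Second probes of PSMD6 and PSMD12 gave 0.12 and -0.15. PSMC4 had -1.13 and overlapped in the ALKBH4 line, and its other probes gave -1.12 and -0.77. None of the genes of these 4 lists passed the test. The model with 4 group means called 7 higher and 1 lower for complex I, 5 and 0 for complexes II to V, 8 and 3 for the mitochondrial ribosome, and 4 and 1 for the proteasome, against 5.98% higher and 6.40% lower of all probes. For the mitochondrial ribosome these counts lie near that share. With each array left out, the mean response had a list median of 0.09 (without uninduced replicate 3 of the ALKBH7 line) to 0.22 for complex I, and of 0.02 (without uninduced replicate 2 of the ALKBH7 line) to 0.10 (without uninduced replicate 3 of the ALKBH4 line) for the mitochondrial ribosome.

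**Figure D4:**
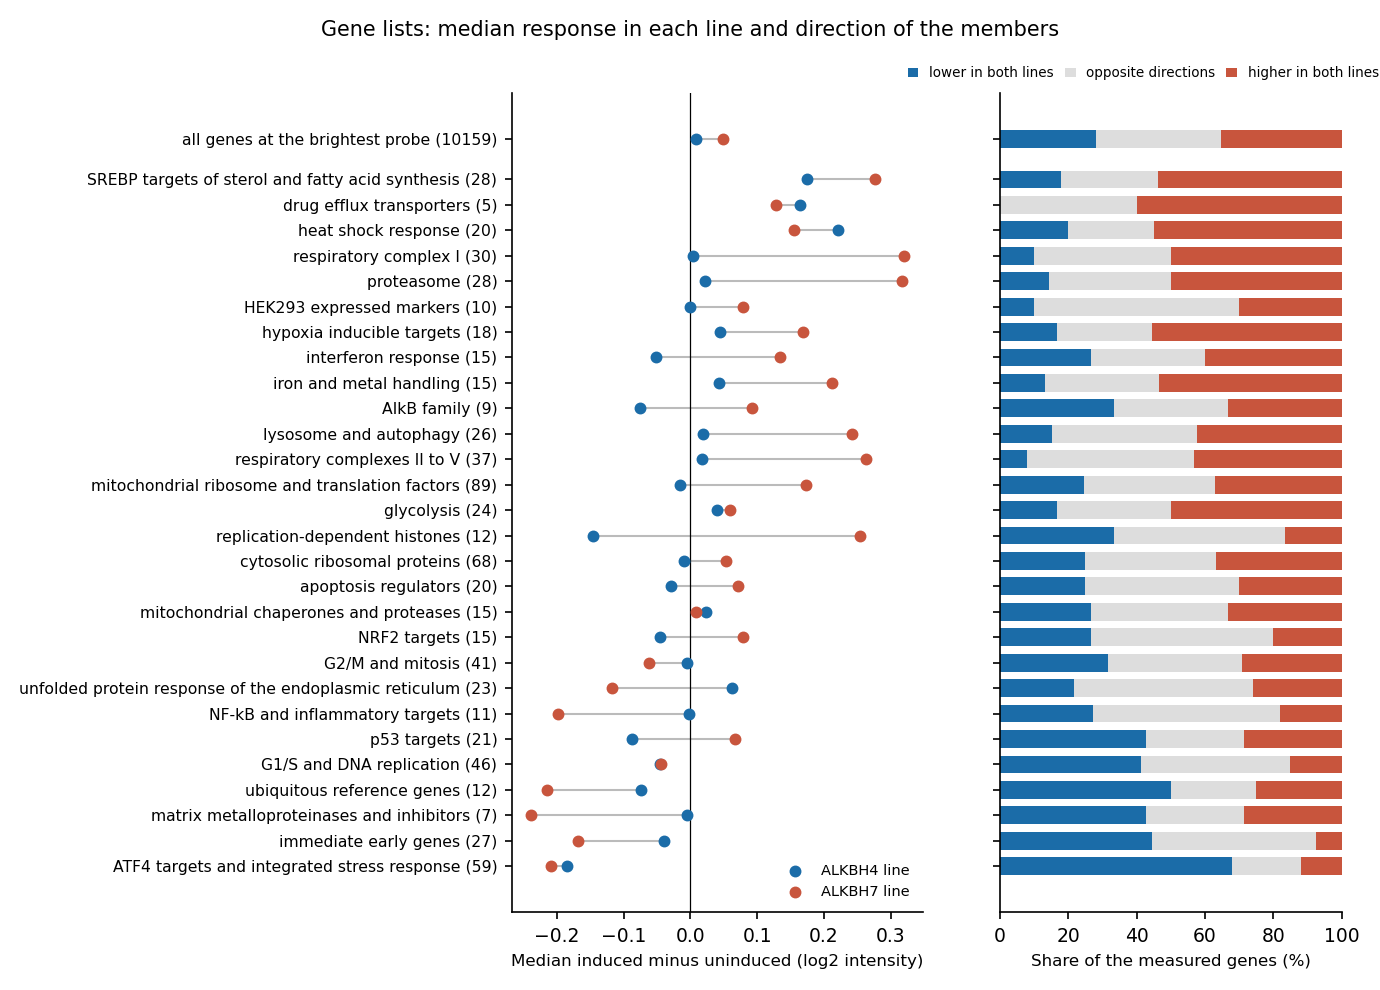
On the left, points give the median difference between induced and uninduced arrays (log2 intensity) for each gene list, blue for the ALKBH4 line and red for the ALKBH7 line, with at least 5 measured genes, with the number of genes in parentheses and all 10159 genes on top. On the right, bars give the share of those genes that were lower in both lines, of opposite direction, or higher in both, and the ATF4 list at the bottom has the largest share lower in both, 67.8% against 28.2% of all genes.

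Growth and signalling genes gave mixed directions. Of 27 immediate early genes 12 were lower in both lines and 2 were higher in both, with a median of -0.16 that became 0.05 under median scaling, against 0.17 over all probes, and -0.10 without induced replicate 2 of the ALKBH7 line. KLF10 and KLF6, zinc finger factors, and JUN, an AP-1 subunit, differed by -0.65 ± 0.20, -0.39 ± 0.10 and -0.43 ± 0.12. KLF10 overlapped in the ALKBH7 line, and KLF6 and JUN overlapped in the ALKBH4 line. A second probe of KLF10 gave -0.26. FOS was lower mainly in the ALKBH7 line, at -1.10 against -0.11. Of 46 genes of G1/S and DNA replication 19 were lower in both lines and 7 higher in both, with a median of -0.06 that became 0.22 under median scaling. That median was -0.12 without uninduced replicate 3, -0.11 without induced replicate 2, -0.02 without uninduced replicate 2 and -0.03 without induced replicate 3 of the ALKBH4 line. DTYMK, thymidylate kinase, and PKMYT1, a kinase that inhibits CDK1, were the lowest of the cell cycle lists at -1.12 ± 0.27 and -1.23 ± 0.35, and both overlapped in the ALKBH4 line. A second probe of PKMYT1 gave 0.07 in the ALKBH4 line against -1.05 in the ALKBH7 line. PKMYT1 had already been reported by the study as lower in the ALKBH7 line. Of 41 genes of G2/M and mitosis 12 were higher in both and 13 lower in both. The unfolded protein response of the endoplasmic reticulum, with 23 genes, had 6 higher and 5 lower in both lines, and XBP1, its main transcription factor, gave -1.05 ± 0.23 with -0.44 and -1.66 in the lines. That XBP1 probe overlapped in the ALKBH4 line, and a second probe gave -0.98 without overlap in either line. Of 15 interferon response genes 6 were higher and 4 lower in both lines. IFIT1, which binds foreign RNA, was higher without overlap in either line (0.49 ± 0.11), while ISG15, a ubiquitin-like modifier, was lower (-0.61 ± 0.17) with overlap in the ALKBH7 line.

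The remaining genes chosen by rule over all probes, by moderated t among probes without overlap in either line, had diverse roles. BICD2, an adaptor of the dynein motor, and LRRFIP1, a binding protein of cytosolic nucleic acids, were higher by 0.61 ± 0.11 and 0.64 ± 0.12 on the log2 scale, and AMMECR1 by 0.73 ± 0.13. A second probe of AMMECR1 gave -0.42. RASSF1, a Ras-association tumour suppressor, was lower, at -0.80 ± 0.13, and its other probes gave -0.62 and -0.83. RASSF1 had already been reported by the study as lower in the ALKBH4 line. RPAIN, which carries replication protein A into the nucleus, stood at 11.91, 12.06 and 11.62 uninduced and 11.32, 11.41 and 11.29 induced in the ALKBH4 line, and at 12.7, 12.49 and 12.63 uninduced and 12.03, 11.87 and 12.03 induced in the ALKBH7 line, with a difference of -0.57 ± 0.09. STMND1 was lower, at -0.65 ± 0.11. None of these overlapped in either line at the probe chosen, and all of them had the adjusted p of 0.0584 in limma. ACTA2, smooth muscle actin and a fibroblast marker, was lower without overlap in either line (-0.47 ± 0.13). With COL1A1 and PDGFRA it made up the 3 measured fibroblast markers, whose summed intensity was 1903 to 2510 uninduced and 1469 to 1859 induced in the ALKBH4 line and 2708 to 3824 uninduced and 2039 to 2493 induced in the ALKBH7 line. COL1A1 and PDGFRA were higher in both lines, by 0.16 and 0.11 on average.

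Different probes of a gene often gave different responses. For the 2336 genes with at least 2 tested probes, the mean responses of the 2 brightest had a correlation of 0.17 and equal signs in 54.0%. Where 1 or both probes were free of overlap in both lines, which was so for 192 genes, 60.4% had equal signs. For 8 of these genes both probes were free of overlap in the same direction, and for 0 in opposite directions. Probes can target different transcripts, and their part in the differing responses was not tested.

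On these arrays, the transgenes checked the labels in the ALKBH7 line only. The ALKBH7 probe stood at 9.66, 9.19 and 9.12 uninduced and 12.88, 12.94 and 13.32 induced in the ALKBH7 line, and at 7.86, 7.79 and 7.75 uninduced and 7.65, 8.01 and 7.87 induced in the ALKBH4 line. The difference was 3.72 ± 0.17 for cells carrying ALKBH7 and 0.04 ± 0.17 for cells carrying ALKBH4, so that its mean over both lines (1.88) describes neither. Without DOX the probe had a mean of 9.32 in the ALKBH7 line against 7.80 in the ALKBH4 line, and the reason was not tested. The ALKBH4 probe anneals to an untranslated region according to the study, so that it checks nothing about the transgene. It gave -0.12 ± 0.20 and 0.47 ± 0.20. The study itself reported the increase of ALKBH4 after DOX by qPCR and by Western blotting of the FLAG tag. Of the 9 AlkB family members ALKBH3, which repairs alkylated single-stranded DNA and RNA, was lower without overlap in either line, at 9.97, 9.56 and 9.55 uninduced and 9.23, 9.52 and 8.92 induced in the ALKBH4 line and 10.51, 10.24 and 10.47 uninduced and 9.63, 9.52 and 9.76 induced in the ALKBH7 line (-0.62 ± 0.12). ALKBH3 was the 1 member without overlap in either line (11.1%, against 1.575% of all genes lower). ALKBH1 and ALKBH2 were lower, at -0.43 and -0.33 on average, with overlap in the ALKBH4 line. ALKBH5, ALKBH6, ALKBH8 and FTO had means from 0.07 to 0.23.

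The difference between the responses was itself tested, and 11 probes (0.0712%) passed an adjusted p of 0.05 in limma. ALKBH7 was the first, at 3.68 ± 0.24 (adjusted p 1.02e-05). PCYOX1, an enzyme that degrades prenylated cysteine, was among them and yet higher without overlap in both lines, by 0.24 in the ALKBH4 line against 1.55 in the ALKBH7 line. Its other probe gave -0.02 and 1.00. GDF15 of the ATF4 list differed by -2.21 ± 0.36 between the lines (adjusted p 0.0460). CERT1, a ceramide carrier, GOLIM4, a Golgi membrane protein, and WHAMM, which promotes actin assembly at membranes, were higher in the ALKBH7 line by 1.37, 1.40 and 1.04 and had -0.10, -0.11 and -0.07 in the ALKBH4 line at the probes that passed. The other probe of GOLIM4 gave -0.21 in the ALKBH4 line against -0.03 in the ALKBH7 line, and that of WHAMM 0.26 against 0.16, so that the pattern of these genes rests on 1 of 2 probes each. Without uninduced replicate 1 of the ALKBH7 line 3335 probes passed this test, and without induced replicate 3 of that line 55 did. Without induced replicate 1 or induced replicate 2 of that line, 1 probe passed in each case. Without any single array of the ALKBH4 line 1 or 2 did.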

How the data were processed

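Total RNA of 12 samples was measured on Illumina HumanWG-6 v3 arrays, 1 array per sample. The authors exported unnormalized bead intensities from GenomeStudio, and the deposited table gives, for 48803 probes, this intensity in arbitrary units and a detection p-value per array. The deposited series table holds intensities quantile normalized by the authors in J-Express and served as an alternative. Of the value columns 0 were without a sample.

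Intensities of the 12 arrays were quantile normalized together and put on the log2 scale without background correction. Probes with a detection p under 0.01 on at least 3 arrays were kept (15444, of which 12964 had 1 gene symbol, 2480 had none or several). Platform annotation paired 27578 of all probes with 1 symbol and 13 with several, leaving 21212 unnamed. Induction with line as a block was fitted with limma 3.58.1 in R 4.3.3 (lmFit, eBayes), with Benjamini-Hochberg adjustment at 0.05. Responses of each line and their difference came from 4 group means. The model was tested on simulated data with larger changes than most of those measured here. That test does not tell how well smaller changes are found. The smallest number of probes that differed between any pair of arrays was 48773, so that no array was a copy. The number of arrays limits the precision.

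Genes named by rule were both transgenes, up to 5 per direction by moderated t among probes free of overlap in both lines (no probe passed the test), up to 4 members of equal sign in both lines per gene list at the brightest probe, and those called for opposite responses of the lines. SLC3A2, ASNS, FGF21, PSAT1, SHMT2, CTH, TRIB3, STC2, SLC7A5, MTHFD2, SLC1A5, ALDH18A1, CBS, SLC38A2, XPOT, GDF15, ATF4, PSMD12, FKBP4, HSP90AB1, HSF1, PCYOX1, ALKBH5, ALKBH6, ALKBH8 and FTO were named after their values had been seen. The members and the gene lists were chosen with earlier results of these data known. Figures were drawn with matplotlib 3.10.9.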

Additional observations from a re-analysis of the deposited data

Results flagged for a closer look

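Results in which the response differed between the lines by a test of the difference itself, with opposite signs or a transgene of one line, concerned 4 genes. ALKBH7 responded 3.68 more on the log2 scale in the ALKBH7 line, which carries it as the transgene, than in the ALKBH4 line (adjusted p 1.02e-05 in limma). GOLIM4 responded 1.52 more in the ALKBH7 line (adjusted p 0.0268), CERT1 1.48 more (adjusted p 0.0268) and WHAMM 1.11 more (adjusted p 0.0268). These values are for the probe that passed. In all, 1 probe passed this test with median scaling and 1 with the authors' values. Without induced replicate 1 or induced replicate 2 of the ALKBH7 line it was also 1 probe in each case. The second probe of GOLIM4 gave -0.21 in the ALKBH4 line against -0.03 in the ALKBH7 line, and that of WHAMM gave 0.26 against 0.16.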

How the results depend on the processing

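The shared response stayed at 0 probes in each direction with normexp background correction, median scaling, quantile normalization within each line, the authors' normalized values, no filter on dim probes, detection on all 12 arrays, trend and robust eBayes, array weights, 16 added before the logarithm, and an adjusted p of 0.01. With the replicate number as a block within a line it was also 0 (smallest adjusted p 0.101). The numbers were not taken to pair samples, since deviations of same-numbered arrays correlated at -0.13, 0.26 and 0.11 in the ALKBH4 line and 0.41, -0.12 and 0.17 in the ALKBH7 line. The count moved to 90 higher and 209 lower with cyclic loess, to 924 and 988 with 4 group means, and to 990 and 1027 at an adjusted p of 0.1. Leaving out each array in turn gave 0 to 713 higher and 0 to 1022 lower. In alternatives added after the data were seen, the model with 4 group means gave 1 higher and 0 lower with median scaling, and 186 to 2707 higher and 237 to 2933 lower with each array left out, the highest without uninduced replicate 1 and the lowest without induced replicate 2 of the ALKBH7 line. The cause of these moves was not tested. The test of both lines gave 0 in every alternative.

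The count of different responses was 1 with median scaling, the authors' values or an adjusted p of 0.01, 7 with cyclic loess, 75 with no filter, 4 with detection on all arrays, 51 with trend and robust eBayes, 6430 with array weights and 381 at an adjusted p of 0.1. It ran from 1 to 3335 with each array left out.

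Of the genes named by rule 11 turned in direction in an alternative. Median scaling gave CDC25A 0.077, CKS1B 0.057, GABARAPL1 0.0059, GUSB 0.11, LONP1 0.021, NDUFV1 0.014, PGD 0.21, RPL37 0.016, RPS9 0.14 and TRAP1 0.0066 in place of negative values, beside the shift of all probes to a median of 0.17. CD14 turned from 0.02 to -0.0024 with cyclic loess, was negative when any 1 of 5 arrays was left out, and ran from -0.041 to 0.094 with each array left out.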
